A study of Mus musculus with 12 samples.

Results

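The guanylate-binding proteins (GBPs) were followed through bulk RNA sequencing of mouse melanoma allografts under antibodies to B7-H3, to PD1, or to both. The 8 genes described are Gbp2, Gbp3, Gbp4, Gbp5, Gbp6, Gbp7, Gbp8 and Gbp9, out of 22195 genes in the deposited files. They were listed by name after their reads had been compared over the antibody groups, and Gbp5 was singled out because it ran against the others. Differences between groups in these 8 genes are therefore given as descriptions, without p-values. Another 3 genes of the family in the files, Gbp2b, Gbp10 and Gbp11, were outside the list, and tests are given for them.

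YUMM 2.1 cells, a cultured line derived from a mouse melanoma, had been injected under the skin of immunocompetent C57BL/6J mice, and the labels call the tissue skin tumor. Treatment started at a tumour size of 20 to 50 mm3 with isotype control IgG, anti-B7H3, anti-PD1, or anti-B7H3 together with anti-PD1 (called the combination). All 4 groups carried the same tumour line in the same mouse strain, and each group had 3 libraries. Whether 2 libraries of a group could share a mouse is not stated in the labels, and p-values therefore describe the spread between libraries alone. B7-H3 and PD1 are immune checkpoint proteins, and the stated aim of the sequencing was to describe the immune cells within the tumours.

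GBPs are large GTPases of the dynamin superfamily that many cell types make after exposure to interferon gamma, with the transcription factor Irf1 among those that act on them. In mouse cells they gather on the vacuoles and surfaces of intracellular microbes and help to start inflammasome signalling there. Their messages are widely used as readouts of interferon gamma in tissue. The genes lie in 2 clusters in GRCm38. The cluster on chromosome 3 holds Gbp5, Gbp7, Gbp3, Gbp2b and Gbp2 on the plus strand, from position 142493978 to 142638008. The cluster on chromosome 5 holds Gbp8, Gbp9, Gbp4, Gbp10, Gbp6 and Gbp11 on the minus strand, from 105014150 to 105346472, and Gbp11 is annotated as a polymorphic pseudogene.

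The family members resemble each other, which bears on how reads can be assigned. In pairwise alignments of coding sequences, Gbp6 and Gbp10 were identical at 98.4% of aligned columns, Gbp2 and Gbp2b at 82.5%, and Gbp3 and Gbp7 at 76.2%. The closest relatives of the coding transcript Gbp5-201 were Gbp2b, with 67.5% identity, and Gbp2, with 66.7%. Of the stretches of 31 bases in the main coding transcript, 93.3% of those of Gbp2b and 89.0% of those of Gbp7 occurred in no other transcript of the files. The share was 76.8% for Gbp2, 72.8% for Gbp3, 66.8% for Gbp9, 54.0% for Gbp8 and 34.8% for Gbp4. For Gbp2, Gbp3 and Gbp4 it is lowered by further transcripts of the same gene, which do not affect reads summed per gene. Stretches that occurred in another gene made up 7.01% for Gbp2, 10.2% for Gbp3 and 41.5% for Gbp4. The share found in no other transcript was 18.7% for Gbp10 and 3.1% for Gbp6-201. Values of Gbp6 and Gbp10 therefore depend on how reads were divided among genes that share these stretches. Gm43302, an annotated gene of the chromosome 5 cluster that shares stretches with both, had 39 reads summed over isotype control, 128 over anti-B7H3, 48 over anti-PD1 and 142 over the combination.

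The coding ends differ in a feature that matters for where the proteins go. GBPs that end in a prenylation motif, a cysteine placed 4 codons before the stop, can be anchored to membranes, and Gbp2, Gbp2b and Gbp5 are known for this ending. The last 30 coding bases of 6 transcripts are shown to compare the 4 codons before the stop, which are in capitals. Coordinates are on the plus strand of chromosome 3 in GRCm38, with sequence from GENCODE M21.
Gbp2-201, chr3:142637464-142637493: aaatcgtctgggaagTGCACTATACTCtga
Gbp2b-201, chr3:142618176-142618205: cctccacctcgatcaTGCACCATACTTtaa
Gbp5-201, chr3:142521133-142521162: agacatcatcatgacTGTGTTATAAGCtaa
Gbp5-203, chr3:142518615-142518644: ctcaccaggaaggtgGCTGGTTGTCTGtag
Gbp3-203, chr3:142572663-142572692: ctgaaattcctcggcTCACTAAGTAGTtag
Gbp7-202, chr3:142546545-142546574: cagaattcagacaaaGTTAGAAAACTCtaa
The capitals open with a cysteine codon (TGC or TGT) in Gbp2-201, Gbp2b-201 and Gbp5-201. They do not in Gbp3-203 and Gbp7-202, nor in Gbp5-203, a transcript that held most of the Gbp5 reads in part of the libraries. Gbp5-202 has the same last coding exon as Gbp5-203, and it held 61.9 to 71.4% of the Gbp5 reads in anti-B7H3 libraries.

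Interferon acts on these genes through motifs close to their starts. RefSeq promoters of GRCm38.p6 were matched by symbol for all 5 chromosome 3 genes, with 2 entries for Gbp3. The letters GAAANNGAAA, the core of an interferon-stimulated response element, were searched on both strands of the 250 bases before each start, and 2.98% of 32851 promoters held them. They were present in at least 1 entry of each of the 5 genes, and not in the second entry of Gbp3. The match nearest to the start is shown in capitals with 10 bases on each side, on the plus strand, where it reads TTTCNNTTTC.
Gbp2, chr3:142620594-142620623: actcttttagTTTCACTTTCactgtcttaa
Gbp2b, chr3:142594700-142594729: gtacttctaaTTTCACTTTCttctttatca
Gbp3, chr3:142559995-142560024: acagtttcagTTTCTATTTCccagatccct
Gbp5, chr3:142496759-142496788: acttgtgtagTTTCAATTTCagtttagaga
Gbp7, chr3:142530273-142530302: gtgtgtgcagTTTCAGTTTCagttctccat
These matches began 59 bases before the start in Gbp2, 137 in Gbp2b, 39 in Gbp3, 165 in Gbp5 and 53 in Gbp7. In Gbp3 it overlapped another match that began 45 bases before the start. The letters TTCNNNGAA, the core of a gamma-activated site, were found in Gbp5 at 245 and 52 bases and in Gbp7 at 106 and 87 bases, and 7.02% of promoters held them. The matches are descriptions of the sequence, not of binding.

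Libraries differed in depth and composition along with the groups. Isotype control libraries were the deepest, with 15585622 to 21298142 reads, and anti-B7H3 libraries the shallowest, with 3593110 to 3937727. Those of anti-PD1 held 8099713 to 10527704 reads and those of the combination 4409772 to 5014931. The share of reads on 12 satellite-like genes was lowest with anti-B7H3 (0.145% ± 0.0679, SD, n = 3), followed by the combination (31.4% ± 2.22), anti-PD1 (72% ± 2.99) and isotype control (92.5% ± 1.93). These genes were defined by their shares in isotype control and anti-B7H3, not by their sequence, so the gap between those groups follows from the definition. Outside the satellite-like genes, isotype control libraries kept 1340782 to 1512937 reads and anti-B7H3 libraries 3570258 to 3918163. Reads per kilobase on 1545 chemoreceptor genes, which tumours are not expected to transcribe, were 7.32 ± 0.504 in isotype control, 0.0915 ± 0.00684 in anti-B7H3, 5.25 ± 0.223 in anti-PD1 and 0.696 ± 0.066 in combination libraries. This rate times a gene's coding length is called its expected background below. These technical values move with the groups, so they cannot be told apart from the antibodies, and their part in each difference was not tested.

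Of the 8 listed genes, 7 were higher with anti-B7H3 and with the combination than with isotype control or anti-PD1, and Gbp5, summed over its transcripts, was lower. Levels are CPM, a gene's reads relative to the total of its library after scaling by trimmed means (scaled CPM), and a fold change is the fitted ratio between groups with its standard error on the log2 scale. The fit called 7 listed genes higher and 1 lower with anti-B7H3 than with isotype control, against 30.8% of 13478 tested genes called higher and 33.3% called lower. For the combination the counts were the same, against 27.8% and 29.5%. For anti-PD1 against isotype control 1 listed gene was called higher and 1 lower, against 17.5% and 20.9%. Since the genes were listed from these comparisons, nothing is read from the counts. In bulk tumours a higher level of a message in cells and a larger share of the cells that make it cannot be told apart.

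**Figure D1:**
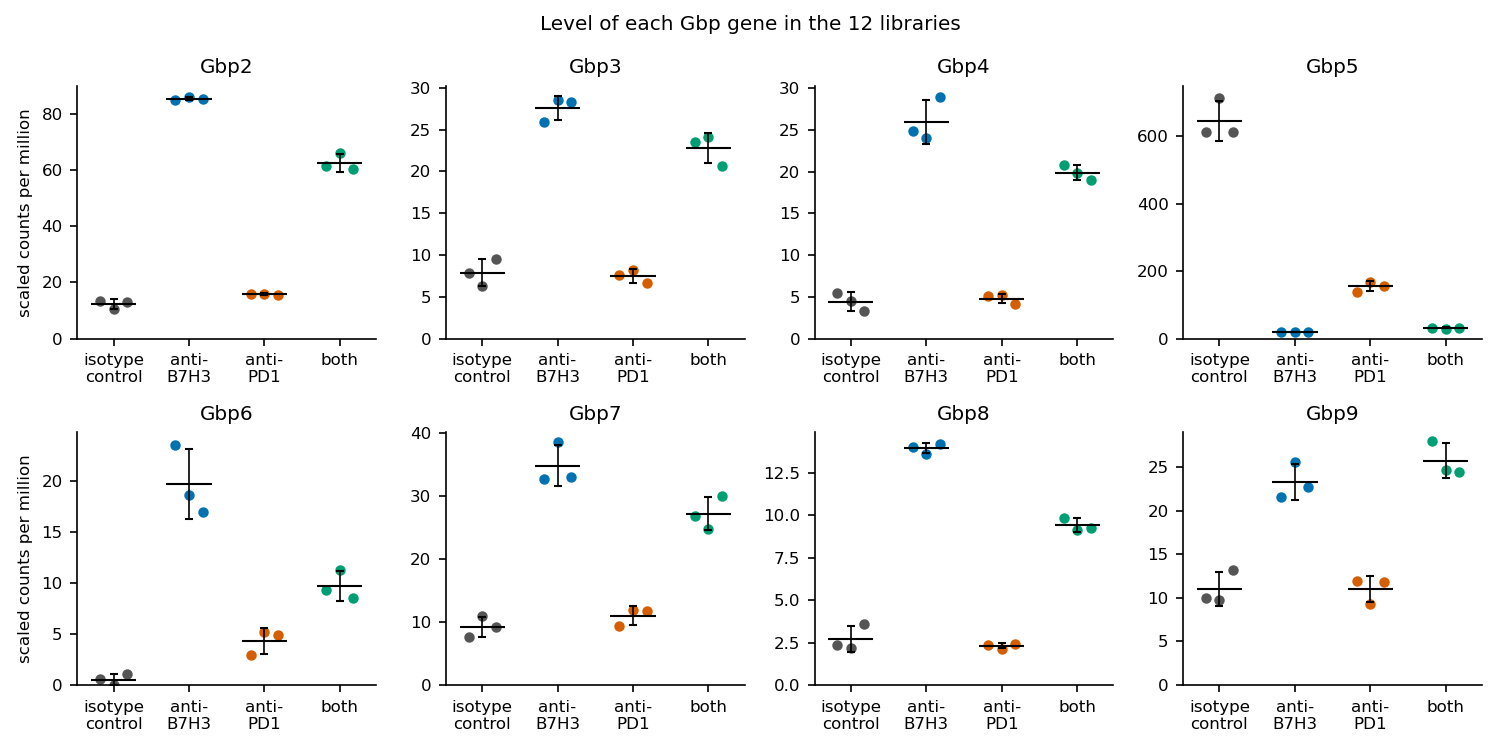
Level of each listed Gbp gene in scaled CPM (vertical axis, from 0, with its own range in each panel) in the 12 libraries, grouped by antibody (horizontal axis). Points are libraries and bars are the mean ± SD of 3; the isotype control points of Gbp2 span 10.4 to 13.5 and its anti-B7H3 points 85 to 86.2, while Gbp5 is at 611 or more in the former and 19.5 or less in the latter.

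Gbp2 was the most abundant of the 7 per kilobase in anti-B7H3 and in combination tumours. This prenylated GBP coats vacuoles of intracellular parasites and bacteria in mouse cells. It had 43.6, 26.0 and 35.4 reads in the isotype control libraries, 1136, 1042 and 1069 in anti-B7H3, 134, 128 and 117 in anti-PD1, and 663, 670 and 735 in the combination. In scaled CPM that was 12.3 ± 1.69 (SD, n = 3), 85.5 ± 0.605, 15.8 ± 0.327 and 62.6 ± 3.10, and the 4 groups did not overlap. The fitted fold was 6.86 with anti-B7H3 (log2 2.78 ± 0.106 SE) and 5.02 with the combination (2.33 ± 0.112) over isotype control. With anti-PD1 it was 1.27 (0.34 ± 0.145), and the fit did not call it. The combination was below anti-B7H3 (log2 -0.45 ± 0.0541).

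Gbp3 and Gbp7, neighbours on chromosome 3 that end without the cysteine, were likewise highest with anti-B7H3 and next highest with the combination, at lower levels. Gbp3 had 15.7 to 25.5 reads in isotype control libraries, 346 to 355 in anti-B7H3, 50.3 to 65.2 in anti-PD1 and 244 to 253 in the combination. Its scaled CPM was 7.87 ± 1.59, 27.6 ± 1.49, 7.47 ± 0.790 and 22.8 ± 1.82 in that order, and isotype control and anti-PD1 overlapped. Its fold over isotype control was 3.46 with anti-B7H3 (log2 1.79 ± 0.158) and 2.85 with the combination (1.51 ± 0.165). Gbp7, a GBP linked to the delivery of oxidase and autophagy components to phagosomes, had 24.6 to 27.3, 415 to 467, 78.6 to 95.8 and 251 to 365 reads. Its scaled CPM was 9.24 ± 1.65, 34.9 ± 3.27, 11.1 ± 1.51 and 27.2 ± 2.58, and here too isotype control and anti-PD1 overlapped. Its fold was 3.8 with anti-B7H3 (1.93 ± 0.151) and 2.98 with the combination (1.58 ± 0.158). Summed isotype control reads were 67 for Gbp3 and 77 for Gbp7, where 40.9 and 42.1 were expected from background, a rate defined above. After background subtraction the log2 values were 2.33 for Gbp3 and 2.23 for Gbp7 with anti-B7H3, and 2.07 and 1.90 with the combination.

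On chromosome 5, Gbp4 and Gbp8 started from reads no higher than the background in isotype control tumours and were well above it in the groups that received anti-B7H3. Gbp4 had 17.8, 11.3 and 8.8 reads in isotype control, 333, 291 and 363 in anti-B7H3, 42.6, 41.2 and 31.6 in anti-PD1, and 225, 202 and 231 in the combination. Its 38 reads summed over isotype control compare with 41.6 expected from background, and its 987 in anti-B7H3 with 0.520. Gbp8 had 23 reads summed over isotype control where 34.6 were expected, then 531 in anti-B7H3, 55 in anti-PD1 where 24.9 were expected, and 311 in the combination. The level of both in isotype control was therefore not distinguishable from background at this depth. The fold over isotype control was 5.75 for Gbp4 (2.52 ± 0.187) and 5.10 for Gbp8 (2.35 ± 0.238) with anti-B7H3, and 4.40 (2.14 ± 0.197) and 3.43 (1.78 ± 0.258) with the combination. After subtraction of the expected background these log2 values were 5.32 and 9.80 with anti-B7H3 and 4.96 and 9.23 with the combination. They rest on few or no reads left in isotype control and are no bounds. With anti-PD1 the value of Gbp8 turned from -0.25, not called, to 6.58, called, and that of Gbp4 went from 0.10, not called, to 2.72, called.

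**Figure D2:**
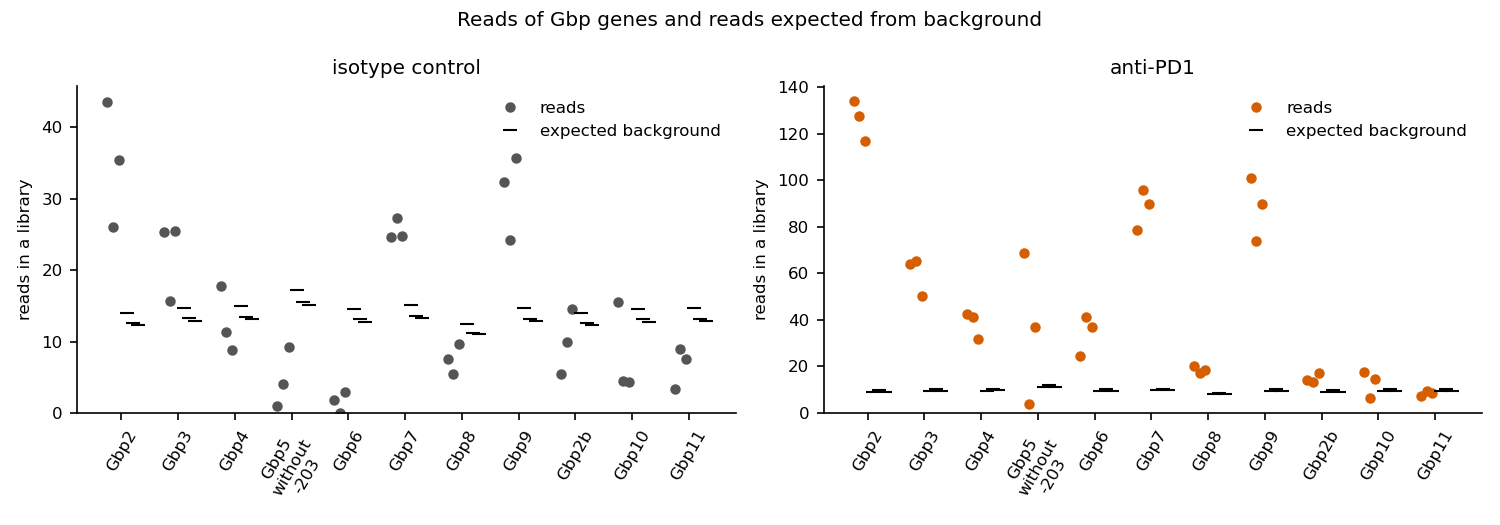
Estimated reads of each Gbp gene (points, 1 per library, vertical axis from 0) beside the reads expected from the chemoreceptor rate (dashes) in isotype control and anti-PD1 libraries; Gbp5 is shown without transcript Gbp5-203. In isotype control the reads of Gbp6 and of Gbp5 without that transcript lie below the dashes, and those of Gbp2, Gbp3, Gbp7 and Gbp9 lie above them in every library.

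Gbp6 had the largest fitted ratio of the 7 and the least certain one. It had 1.8, 0.0 and 2.9 reads in isotype control, 315, 226 and 213 in anti-B7H3, 24.6, 41.2 and 37.1 in anti-PD1, and 101, 114 and 104 in the combination, with no overlap between groups. In scaled CPM this was 0.540 ± 0.537, 19.7 ± 3.41, 4.33 ± 1.23 and 9.71 ± 1.42. The fold over isotype control was 32.6 with anti-B7H3 (5.03 ± 0.384), 7.09 with anti-PD1 (2.83 ± 0.560) and 15.9 with the combination (3.99 ± 0.456). All 5 isotype control reads, against 40.3 expected from background, were assigned to Gbp6-203, a transcript of 189 coding bases annotated for nonsense-mediated decay. The full-length Gbp6-201, of 1836 bases, had 0 reads there and 92.3 to 97.4% of the reads of the gene in anti-B7H3 libraries. With an offset for effective length the 3 log2 values were 3.1, 1.5 and 2.26, and the anti-PD1 value was then not called. After background subtraction they were 10.29, 7.87 and 9.27, with the same limit as for Gbp4 and Gbp8. Gbp10, its near copy, had 24, 96, 38 and 109 reads summed over isotype control, anti-B7H3, anti-PD1 and the combination, against 5, 753, 103 and 319 for Gbp6.

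Gbp9 differed least, and was the only listed gene other than Gbp5 whose mean in the combination was not below its mean in anti-B7H3. It had 32.3, 24.2 and 35.7 reads in isotype control, 289, 310 and 285 in anti-B7H3, 101, 74.1 and 89.6 in anti-PD1, and 302, 250 and 297 in the combination. Its scaled CPM was 11 ± 1.97, 23.3 ± 2.05, 11 ± 1.48 and 25.7 ± 1.99, so isotype control and anti-PD1 overlapped and so did anti-B7H3 and the combination. Its fold over isotype control was 2.13 with anti-B7H3 (1.09 ± 0.153) and 2.35 with the combination (1.23 ± 0.152).

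**Figure D3:**
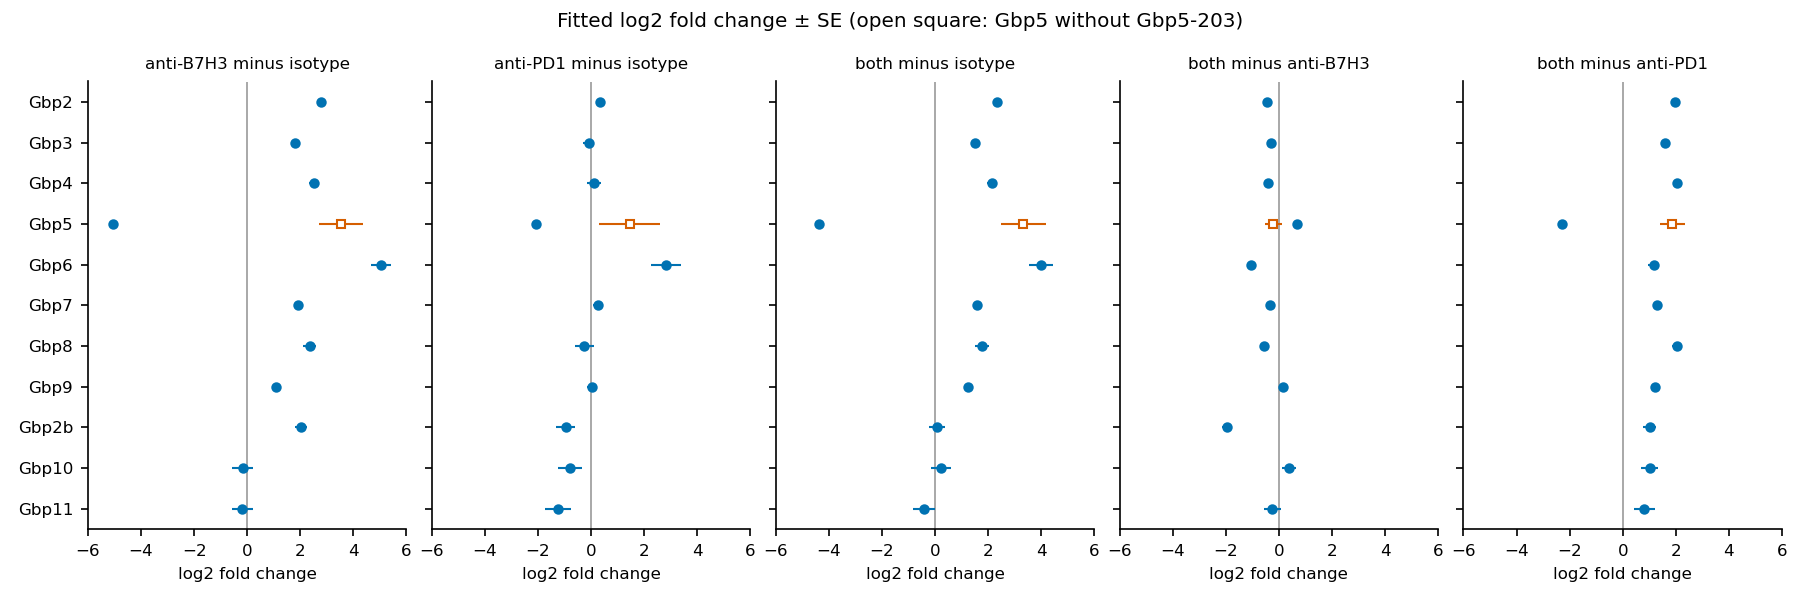
Fitted log2 fold change ± SE (horizontal axis) of the 8 listed genes and the 3 other Gbp genes (vertical axis) in 5 comparisons, with positive values higher in the group named first; open squares are Gbp5 without transcript Gbp5-203. Apart from Gbp5 the listed genes lie between 1.09 and 5.03 for anti-B7H3 minus isotype, and Gbp5 moves from -5.05 to 3.53 when the transcript is left out.

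Gbp5, a GBP known for promoting assembly of the Nlrp3 inflammasome in mouse macrophages, ran the other way when its transcripts were summed. It had 1980.0, 1784 and 1646 reads in isotype control, 258, 236 and 244 in anti-B7H3, 1174, 1336 and 1193 in anti-PD1, and 343, 300.0 and 397 in the combination. In scaled CPM this was 646 ± 58.8, 19.4 ± 0.0756, 155 ± 14.5 and 31.3 ± 1.52, with no overlap between the groups. The log2 fold change against isotype control was -5.05 ± 0.0705 with anti-B7H3, -2.06 ± 0.0579 with anti-PD1 and -4.36 ± 0.0673 with the combination.

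The 3 Gbp5 transcripts in the files did not share this pattern. Gbp5-201, the protein-coding form, had 1.0, 4.0 and 0.0 reads in isotype control, 74.0, 90.0 and 89.5 in anti-B7H3, 1.2, 4.0 and 7.7 in anti-PD1, and 8.1, 7.9 and 12.2 in the combination. Gbp5-202, annotated for nonsense-mediated decay, had 0.0, 0.0 and 9.3 reads in isotype control, 184, 146 and 154 in anti-B7H3, 67.8, 0.0 and 29.2 in anti-PD1, and 200, 124 and 206 in the combination. Gbp5-201 was thus highest in anti-B7H3, at 6.71 scaled CPM. In the combination, at 0.844, it was close to isotype control (0.639) and anti-PD1 (0.555), unlike the other listed genes. Gbp5-202 was higher in anti-B7H3 (12.7) and the combination (15.9) than in isotype control (1.15) or anti-PD1 (3.96), as the other listed genes were. Gbp5-203, also annotated for nonsense-mediated decay, had 1979, 1780.0 and 1637 reads in isotype control, 0.0 in each anti-B7H3 library, 1105, 1332 and 1156 in anti-PD1, and 135, 168 and 179 in the combination. It held 99.7% ± 0.262 (SD, n = 3) of the Gbp5 reads in isotype control, 96.9% ± 2.79 in anti-PD1 and 46.8% ± 8.37 in the combination.

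**Figure D4:**
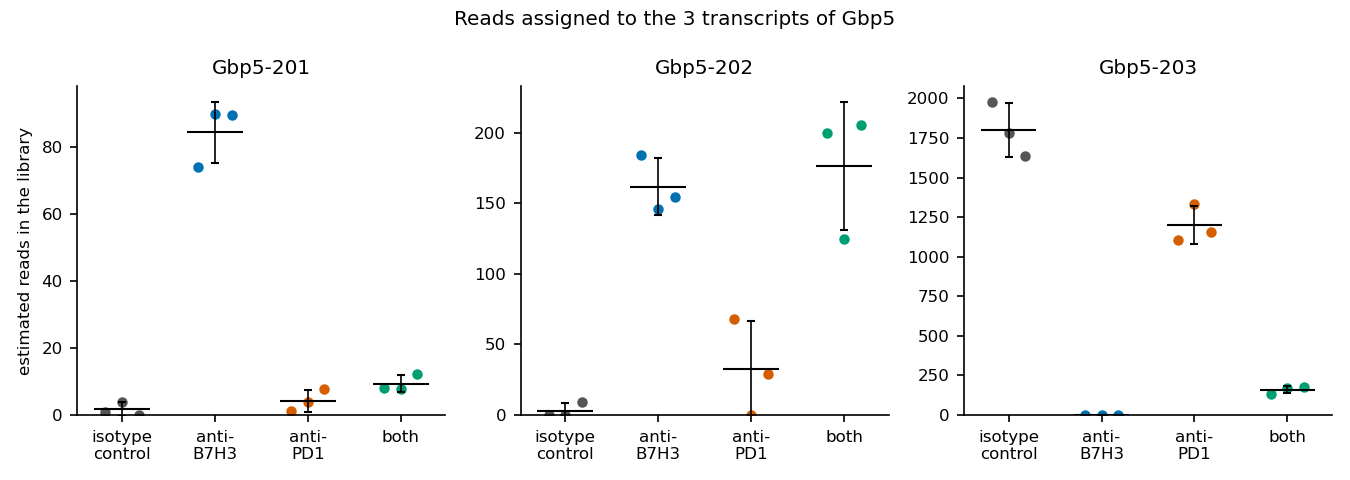
Estimated reads per library (vertical axis, from 0, with its own range in each panel) assigned to the 3 transcripts of Gbp5, by antibody group; points are libraries and bars are the mean ± SD of 3. Gbp5-201 is highest in anti-B7H3 at 74.0 to 90.0 reads, and Gbp5-203 has 1637 to 1979 reads in isotype control and 0.0 in anti-B7H3.

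Without Gbp5-203, an alternative chosen after its reads were seen, Gbp5 had 14 reads summed over isotype control, 738 over anti-B7H3, 110 over anti-PD1 and 558 over the combination. The isotype control sum lies below the 47.7 reads expected from background. The log2 fold change against isotype control was then 3.53 ± 0.821 with anti-B7H3, 1.45 ± 1.14 with anti-PD1 and 3.33 ± 0.852 with the combination, and the fit did not call the anti-PD1 value. Against anti-PD1, the combination was at 1.87 ± 0.462, and against anti-B7H3 at -0.21 ± 0.315. The value against anti-B7H3 was not called either. The call of Gbp5 as lower with anti-B7H3 and with the combination than with isotype control, and lower with the combination than with anti-PD1, thus rested on this transcript.

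Over the groups, the reads of Gbp5-203 moved with the satellite-like reads. Those genes were chosen as high in isotype control and far lower in anti-B7H3, and Gbp5-203 was singled out after its reads were seen. Their likeness between isotype control and anti-B7H3 is thus partly set by these choices. In CPM of the reads on the 12 satellite-like genes, Gbp5-203 stood at 100 in isotype control, 172 in anti-PD1 and 111 in the combination. Its 0 reads in anti-B7H3 allow up to 3 in a library. The coding sequences of Gbp5 shared no stretch of 21 bases with the satellite-like genes. Its 5396 reads summed over isotype control were 134 times the 40.4 expected from the chemoreceptor rate. Whether the reads came from Gbp5 message was not tested, since read positions are not part of the values used here.

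**Figure D5:**
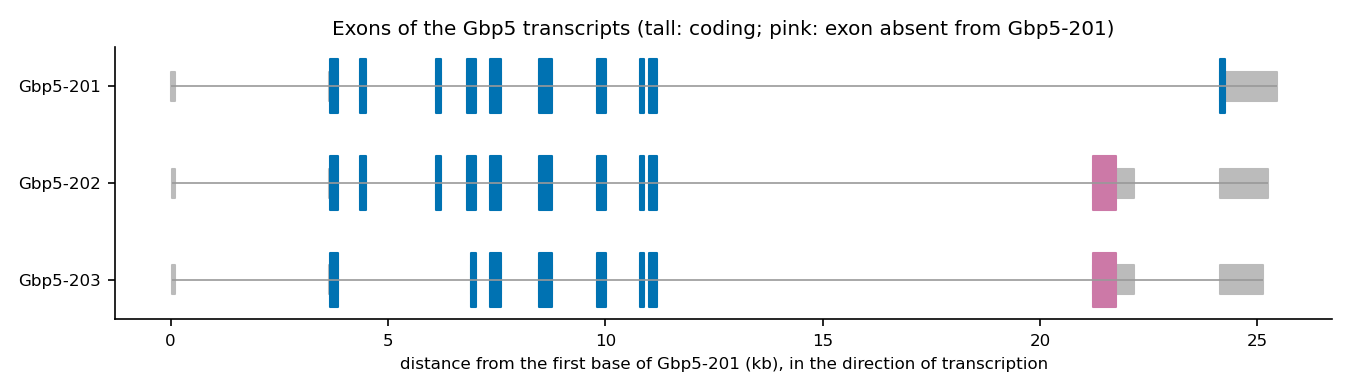
Exons of the 3 Gbp5 transcripts (rows) by distance in kilobases from the first base of Gbp5-201 (horizontal axis), with coding parts tall and untranslated parts short. Gbp5-202 and Gbp5-203 share an exon of 940 bases (pink) that Gbp5-201 lacks, and Gbp5-203 lacks exons 3 and 4 of the other forms.

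Gbp5-203 joins position 142500746, the end of exon 2, to 142503821 within exon 5 of the other forms, so it lacks exons 3 and 4. The junction is printed because it holds the sequence that tells this transcript from the others, with 29 stretches of 31 bases found in no other transcript of the files. Gbp5-201 has 122 such stretches and Gbp5-202 has none. The capitals mark 10 bases around the join.
Gbp5-203 junction, chr3:142500717-142503849, plus strand: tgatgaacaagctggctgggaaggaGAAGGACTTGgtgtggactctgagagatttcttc

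The exon that Gbp5-202 and Gbp5-203 share, at chr3:142518120-142519059, has 940 bases, of which 525 are coding. It holds a tandem pair of similar stretches 204 bases apart. In the pair of windows of 201 bases shown, 171 bases (85.1%) were the same, and the 30 that differ are in capitals.
Copy 1, chr3:142518204-142518404: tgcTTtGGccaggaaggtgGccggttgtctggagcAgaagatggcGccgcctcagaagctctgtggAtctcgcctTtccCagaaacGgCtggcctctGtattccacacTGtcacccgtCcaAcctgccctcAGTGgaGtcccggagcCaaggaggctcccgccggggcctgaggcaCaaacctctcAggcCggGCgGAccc
Copy 2, chr3:142518408-142518608: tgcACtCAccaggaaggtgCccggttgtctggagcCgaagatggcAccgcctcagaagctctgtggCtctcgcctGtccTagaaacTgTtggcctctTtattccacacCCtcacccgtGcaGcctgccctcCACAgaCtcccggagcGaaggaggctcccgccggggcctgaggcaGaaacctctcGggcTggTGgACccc
Stretches of 25 bases from this exon also occurred in 33 other transcripts of 26 genes in GENCODE M21, up to 149 of the 885 in the exon. Of these transcripts, 5 were in the files and 1 shared coding bases with the exon. Transcripts outside the files, mostly non-coding, could not take such reads.

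Adding anti-PD1 to anti-B7H3 went with lower levels of most listed genes. The fit called 6 of the 8 lower and 1 higher in the combination than in anti-B7H3, against 19.1% of tested genes called lower and 19.8% called higher. With an offset for effective length 1 of the 8 was called lower, and from the longest coding transcripts 3 were. Gbp6 had the lowest value, a log2 of -1.04 ± 0.132 or 2.05-fold lower. Gbp8 was at -0.57 ± 0.120, Gbp4 at -0.39 ± 0.0894, Gbp7 at -0.35 ± 0.0826 and Gbp3 at -0.28 ± 0.0860. Gbp9 was at 0.14 ± 0.0884 and not called, and Gbp5 was at 0.69 ± 0.0857.

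Adding anti-B7H3 to anti-PD1 went with higher levels of 7 listed genes. The fit called these 7 higher and Gbp5 lower, against 23.1% and 23.4% of tested genes. Gbp4 was 4.10-fold higher (log2 2.04 ± 0.136), Gbp8 4.08-fold (2.03 ± 0.188), Gbp2 3.96-fold (1.98 ± 0.0765) and Gbp3 3.03-fold (1.60 ± 0.120). Gbp7 was at a log2 of 1.30 ± 0.109, Gbp9 at 1.21 ± 0.111 and Gbp6 at 1.16 ± 0.194. These ratios do not use the means of isotype control, where several genes were at background, though its libraries entered the shared fit. Background was also present in anti-PD1, where Gbp8 had 55 reads against 24.9 expected and Gbp6 103 against 28.9. After background subtraction Gbp8 was at 2.65, Gbp4 at 2.24, Gbp3 at 1.62 and Gbp6 at 1.40. Gbp2, Gbp7 and Gbp9 were then at 1.87, 1.25 and 1.16.

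The interaction asks whether anti-PD1 changed a gene differently with anti-B7H3 than without it. The fit called 1 listed gene positive and 3 negative, against 19.1% and 17.3% of tested genes. The values were -0.79 ± 0.153 for Gbp2, -3.86 ± 0.538 for Gbp6, -0.62 ± 0.206 for Gbp7 and 2.75 ± 0.103 for Gbp5. The comparisons share libraries, so their values are not independent of each other.

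Of the 3 family members outside the list, Gbp2b followed the listed genes in anti-B7H3 tumours but not in the combination. Gbp2b, called Gbp1 in older mouse work, is the closest relative of Gbp2. It had 5.4, 10 and 14.6 reads in isotype control, 189, 174 and 189 in anti-B7H3, 14.0, 13.1 and 17.0 in anti-PD1, and 37.0, 36.1 and 50.0 in the combination. It was 4.06-fold higher with anti-B7H3 than with isotype control (log2 2.02 ± 0.237, adjusted p = 1.49e-11 in edgeR's quasi-likelihood test). In the combination it was at 0.06 ± 0.300 (adjusted p = 0.889) against isotype control and 3.91-fold lower than with anti-B7H3 (log2 -1.97 ± 0.155, adjusted p = 7.9e-18). All 3 combination libraries, at 3.43 to 4.10 scaled CPM, lay below the 3 anti-B7H3 libraries at 14.2 to 15.1.

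The isotype control reads of Gbp2b, 30 in sum, were under the 38.9 expected from background, and 44 in anti-PD1 compare with 27.9. After background subtraction the combination was called higher than isotype control (log2 3.08, adjusted p = 0.00181 in edgeR's quasi-likelihood test). This value rests on few reads left in isotype control and is no bound. The value against anti-B7H3 was again -1.97 (adjusted p = 1.26e-09). With anti-PD1, Gbp2b was called lower than isotype control (log2 -0.95 ± 0.355, adjusted p = 0.0271), a call that ended without isotype control replicate 2 or 3 (adjusted p = 0.0938 and 0.388) or without anti-PD1 replicate 1 or 2 (0.0646 and 0.0625). After background subtraction it was at 0.89 (adjusted p = 0.592). The combination exceeded anti-PD1 by a log2 of 1.01 ± 0.253 (adjusted p = 0.000631).

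Gbp10 and Gbp11 stayed at low reads in every group. Gbp10 had 4.4 to 15.6 reads in isotype control, 25.1 to 42.2 in anti-B7H3, 6.3 to 17.5 in anti-PD1 and 32.6 to 41.6 in the combination. Gbp11 had 3.4 to 9.0, 19.3 to 36.0, 7.2 to 9.3 and 18.6 to 20.1. Against isotype control, where both lay under the expected 40.3 and 40.8 reads, the anti-B7H3 values were -0.17 ± 0.392 (adjusted p = 0.716, edgeR) and -0.18 ± 0.408 (0.706). After background subtraction both turned to higher, at 3.48 (adjusted p = 0.0122) and 7.07 (0.00357). Few or no isotype control reads were left, so this turn follows from the subtraction and the values are no bounds. The p-values leave out the error of the expected background. Gbp10 was higher in the combination than in anti-PD1 (log2 1.02 ± 0.322, adjusted p = 0.00777 in edgeR), a call that ended without anti-PD1 replicate 2 (0.103). Gbp11 was called lower with anti-PD1 than with isotype control (-1.25 ± 0.478, adjusted p = 0.0323), at reads under background in both. That call ended without isotype control replicate 2 or 3 (adjusted p = 0.239 and 0.139) or anti-PD1 replicate 1 (0.0840).

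Per kilobase of coding length, the order of the family differed between groups. In anti-B7H3 tumours Gbp2 stood first at 48.3 ± 0.342 (SD, n = 3) scaled CPM per kilobase, above Gbp7 at 18.2 ± 1.70 and Gbp3 at 14.8 ± 0.798. Gbp3, Gbp4 (13.7 ± 1.38), Gbp9 (12.5 ± 1.10), Gbp6 (10.7 ± 1.86), Gbp5 (8.94 ± 0.0347) and Gbp8 (8.85 ± 0.194) followed, each neighbour within the summed SDs of the next. Gbp2b at 8.20 ± 0.267 was set apart from Gbp8 above and from Gbp10 (1.38 ± 0.451) and Gbp11 (1.13 ± 0.363) below. In the combination Gbp2 was first again at 35.4 ± 1.75. Gbp5, Gbp7, Gbp9 and Gbp3 came next at 12.2 to 14.4, each within the summed SDs of its neighbour, and Gbp2b was at 2.09 ± 0.203. In isotype control Gbp5 stood first at 297 ± 27.1, and Gbp2, Gbp9, Gbp7 and Gbp3 followed at 4.22 to 6.97 without separation. In anti-PD1 Gbp5 was first at 71.1 ± 6.67 and Gbp2 second at 8.91 ± 0.185.

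Genes of interferon gamma signalling rose with anti-B7H3. The list mixes steps between the receptor and the Gbp genes with Socs1, Ciita and Nlrc5, which are not such steps. Of 14 genes, from the receptor chains to the transcription factors, 13 were tested and Ifng, the ligand, did not pass the filter on low counts. All 13 rose with anti-B7H3 over isotype control, where 30.8% of tested genes were called higher, with a median log2 of 1.96 where the median of all genes was -0.04. Irf1, the factor most directly upstream of Gbp genes, rose most (log2 3.08 ± 0.172, adjusted p = 5.55e-26 in edgeR's quasi-likelihood test), and Stat2, used mainly by type I interferon, rose least (0.34 ± 0.131, adjusted p = 0.0199). The calls of Stat2 and Irf2 ended after background subtraction (adjusted p = 0.0865 and 0.291, edgeR). In isotype control Ciita had 73 reads where 76.1 were expected from background and Nlrc5 had 117 where 126 were. The other tested genes of the list had more reads than expected there.

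With the combination 10 of the 13 rose over isotype control, against 27.8% of tested genes, with a median of 1.22. With anti-PD1 7 rose, 1 fell and 5 did not pass, against 17.5% called higher and 20.9% lower, with a median of 0.37. Irf1 (1.13 ± 0.227, adjusted p = 4.13e-05, edgeR) rose most there. Irf2 was called lower there (-0.50 ± 0.196, adjusted p = 0.0368). Against anti-B7H3 the combination had 12 of 13 lower, where 19.1% of tested genes were, from Socs1, a feedback inhibitor (-1.28 ± 0.205, adjusted p = 3.19e-07), to the kinase Jak1 (-0.20 ± 0.0465, adjusted p = 0.000243). Against anti-PD1 it had 12 of 13 higher, where 23.1% of tested genes were, and Nlrc5, the activator of class I antigen presentation genes, rose most (1.39 ± 0.0857, adjusted p = 4.17e-23). The type I interferon receptor arm (Ifnar1, Ifnar2 and Tyk2) rose in 3 of 3 genes with anti-B7H3, with a median of 0.90, and fell in 3 of 3 between anti-B7H3 and the combination, with a median of -0.46.

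Immunity-related GTPases, which act with GBPs on vacuoles of intracellular microbes, had 8 tested genes of 9 in the files. With anti-B7H3 7 of the 8 rose over isotype control, with a median of 2.17, and with the combination 7 rose, with a median of 1.77. The shares of all tested genes called higher were 30.8% and 27.8%. Ifi47 had 0 reads in isotype control and 813 in anti-B7H3, at least 60.1-fold higher when the isotype control sum is set at a floor of 3 reads. The smallest rise called was that of Tgtp1 (1.33 ± 0.241, adjusted p = 2.16e-06 in edgeR), which shares near-identical sequence with Tgtp2, and Irgq did not pass (-0.23 ± 0.198, adjusted p = 0.302). With Ifi47 at its bound both medians were unchanged. With anti-PD1 2 rose and 1 was called lower, against 17.5% and 20.9% of tested genes, with a median of 0.22, and Ifi47 was at least 12.1-fold higher. The gene called lower was Tgtp1 (-0.99 ± 0.334, adjusted p = 0.0144, edgeR), and that call ended after background subtraction (-0.63, adjusted p = 0.613).

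Inflammasome and pyroptosis genes, which GBPs act upstream of, were more mixed. With anti-B7H3 6 of 10 rose and 1 was called lower against isotype control, where 30.8% and 33.3% of tested genes were, with a median of 0.93. Il1b, an inflammasome-processed cytokine, rose most (2.58 ± 0.293, adjusted p = 5.98e-12, edgeR). Nlrc4 was called lower (-1.40 ± 0.273, adjusted p = 8.23e-06), with 61 isotype control reads where 68.3 were expected from background, and was at 2.65 after background subtraction (adjusted p = 0.0147). With anti-PD1 none rose at the adjusted threshold and 3 were called lower, against 17.5% and 20.9% of tested genes, the lowest again Nlrc4 (-1.38 ± 0.288, adjusted p = 7.18e-05) and the least low Naip5 (-0.80 ± 0.263, adjusted p = 0.0114). After background subtraction neither was called lower there (1.05 and 6.26, adjusted p = 0.543 and 0.150), nor was the other of the 3, Nlrp3 (0.98, adjusted p = 0.428). Gsdmd, the pore protein of pyroptosis, rose by a log2 of 2.17 ± 0.200 with anti-B7H3 over isotype control (adjusted p = 1.48e-15). With anti-PD1 it was at 0.05 (adjusted p = 0.905), and after background subtraction it was called higher (1.79, adjusted p = 0.0241).

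Genes that place GBPs on membranes were examined as well. Of 9 genes of the ubiquitin-like conjugation of autophagy, needed for GBP recruitment to vacuoles, 5 rose with anti-B7H3, against 30.8% of tested genes, with a median of 0.75 and Gabarap highest (1.17 ± 0.115, adjusted p = 2.15e-14, edgeR). With anti-PD1 1 rose, against 17.5% of tested genes, and with the combination 4 rose, against 27.8%. Of 6 prenylation and CaaX processing genes none was called with anti-B7H3, with values from -0.28 (Fntb, adjusted p = 0.373) to 0.30 (Icmt, 0.385). Of 3 reported regulators of GBPs, all 3 rose with anti-B7H3, where 30.8% of tested genes did, and the kinase Pim1 rose most (2.84 ± 0.188, adjusted p = 3.84e-22 in edgeR).

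Markers of cell types moved with the groups as well. Summed over 9 macrophage markers, libraries ran from 277 to 302 scaled CPM in isotype control, 2330 to 2360 in anti-B7H3, 400 to 421 in anti-PD1 and 1150 to 1170 in the combination. They were highest in anti-B7H3 and next highest in the combination, as were Gbp2, Gbp3, Gbp4, Gbp6, Gbp7 and Gbp8. The dendritic cell and endothelial markers were also highest in anti-B7H3 and next highest in the combination, so this order was not particular to macrophage markers. The 5 dendritic cell markers ran from 39.1 to 46.8, 133 to 140, 41.3 to 45.8 and 68.1 to 75.8, with 353 isotype control reads where 221 were expected from background. The 4 fibroblast markers ran from 770 to 853, 3500 to 3550, 2260 to 2400 and 2240 to 2280. The 8 T cell markers ran from 13.7 to 16.8 in isotype control, where their 127 reads compare with 117 expected from background, and from 25.1 to 27.5, 3.69 to 5.37 and 11.9 to 14.6 in the other groups. The 5 natural killer cell markers ran from 13.7 to 15.9, 20.0 to 24.2, 6.59 to 8.55 and 7.70 to 11.1. Their isotype control reads were 127 where 108 were expected from background. The 7 melanocyte markers ran from 90.6 to 107, 25.5 to 28.8, 83.1 to 86.8 and 44.4 to 46.8, with Tyrp1 and Dct at 0 in anti-B7H3. At least 1 read was found for every marker of these lists in each group other than these 2. The part of cell composition in the Gbp values was not tested.

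Of the remaining marker lists, the 4 endothelial markers ran from 35.7 to 40.8, 58.2 to 62.1, 26.9 to 29.9 and 43.5 to 47.7 scaled CPM in the same order of groups. The 4 B cell markers summed to 0.592 to 13.2 over all libraries. The 4 skeletal muscle markers ran from 75.6 to 80.4 in the combination and were at 28 or lower elsewhere, with Myh4 at 0 in anti-B7H3. The 4 keratinocyte markers ran from 22.8 to 25.7 in isotype control and were at most 0.150 in anti-B7H3, with Krt5, Krt14 and Trp63 at 0 there. In isotype control these lists were near the expected background. Keratinocyte markers had 208 reads where 152 were expected, and skeletal muscle markers 210 where 189 were. Endothelial markers had 319 where 263 were expected, and B cell markers 85 where 88.9 were.

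Genes with the most similar patterns over the 12 libraries differed between Gbp5 and the rest. The measure was Pearson's r of log2 scaled CPM among 12647 named genes for Gbp5 and 12640 for the sum of the other 7, given as a description since the libraries fall into 4 groups and share depth. Closest to the sum of the 7 were Thbs2 (0.9959), Vcam1 (0.9940), F13a1 (0.9935), Mmp9 (0.9928) and H2-T23 (0.9923). The sum itself was 48.1 ± 4.54, 231 ± 3.92, 56.8 ± 1.53 and 177 ± 4.53 scaled CPM in isotype control, anti-B7H3, anti-PD1 and the combination. Closest to Gbp5 were Uty (0.9980), Sfi1 (0.9976), mt-Nd2 (0.9969), Klhdc7b (0.9966) and mt-Nd4 (0.9965), which all were highest in isotype control.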

How the data were processed

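Per the labels' protocols, total RNA libraries were made after ribosomal depletion, from samples of 500 ng or more with an integrity number of at least 7.0. FastQC 0.11.8 and the build GRCm38 are named in the submitters' processing notes. The quantification program, its version and its strand setting are not given in the sources used here. The estimated counts per transcript that the authors deposited were used, and their TPM values were not. The files list 58083 transcripts, of which 57473 were matched to GENCODE M21, and 87.3% of lengths are multiples of 3 (coding lengths).

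Estimated counts were summed over 22195 genes, rounded and fitted in R 4.3.3 by the quasi-likelihood F test of edgeR 4.0.16 (TMM scaling, filtering by expression, 12 libraries, 1 mean per group). The filter left 13478 genes, and all 8 listed genes passed it. Calls were made below 0.05 after Benjamini-Hochberg adjustment of p over all tested genes. The 12 satellite-like genes took at least 0.5% of isotype control reads and a share at least 100 times lower in anti-B7H3, a threshold set after the data were seen. Transcripts were given as reads and shares, with no test. Sequences were compared with fixed-length stretches and global alignments. The fit was run on simulated counts with known changes, where it recovered 72% of 2-fold and 94.9% of 4-fold changes and 4.6% of calls were false. The simulation held no satellite-like genes, background or difference in composition between groups, so it does not test the fit under those conditions. Replicates were not identical files. The mean chi-square per gene between replicates of a group was above sampling noise in every pair. It was lowest in anti-B7H3 and the combination (1.37 to 1.51). Printed SDs, SEs and p-values cover the spread between these libraries and may not cover that between tumours. Library totals limit precision, and floors cover counting error only.

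The listed genes, the related lists and the marker lists were chosen with earlier results of these data known. All genes with a Gbp symbol are named, and of each related list the genes with the largest and smallest called change, with a few added for their role after their values were seen. The values of some genes on these lists are not reported here. Alternatives are listed in the closing section. Replicate numbers did not pair the libraries, with correlations of deviations from -0.036 to 0.043 over 18 pairs.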

Additional observations from a re-analysis of the deposited data

Results flagged for a closer look

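The interaction term of the fit across all genes, which asks whether anti-PD1 changed a gene differently with anti-B7H3 than without it, was called for 5 of the 11 Gbp genes. It was positive for 1 and negative for 4, against 19.1% and 17.3% of all tested genes, so nothing particular to the family is read from the count. The difference of the log2 effects was -0.79 ± 0.153 (SE) for Gbp2, 2.75 ± 0.103 for Gbp5, -3.86 ± 0.538 for Gbp6 and -0.62 ± 0.206 for Gbp7, given without p-values because these genes were listed from such comparisons. For Gbp2b it was -1.01 ± 0.383 (adjusted p = 0.0313 in edgeR's quasi-likelihood test). That call ended without isotype control replicate 1 (-0.57, adjusted p = 0.265) or anti-PD1 replicate 3 (-0.84, 0.128). It also ended with scaling on genes well above background (0.0854), with the effective-length offset, and from complete (0.0528) or longest transcripts (0.203). Without transcript Gbp5-203 the value of Gbp5 was -1.66 ± 1.18 and was not called. The reads of Gbp6 and Gbp2b in isotype control, 5 and 30 in sum, lie under the 40.3 and 38.9 expected from background.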

How the results depend on the processing

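Gbp5 turned direction with its transcripts in most comparisons. Against isotype control its log2 values without Gbp5-203 (chosen after the data were seen) were 3.53 with anti-B7H3, 1.45 with anti-PD1 and 3.33 with the combination. The combination was then at -0.21 against anti-B7H3 and 1.87 against anti-PD1, with an interaction of -1.66. From the longest coding transcript alone, Gbp5-202, they were 3.46, 1.85, 3.81, 1.96 against anti-PD1 and -1.5 for the interaction, while 0.35 against anti-B7H3 did not turn. Without every transcript that switched between isotype control and anti-B7H3 they were 3.46 with anti-B7H3, 0.50 with the combination, -2.96 against anti-B7H3, 0.62 against anti-PD1 and -2.83 for the interaction, while -0.13 with anti-PD1 did not turn; Gbp6 then had too few reads to test. Counts of listed genes called against the main direction of the 7 were then 0 in place of 1 in each comparison, because Gbp5 was that gene, and 0 in place of 1 were called higher with anti-PD1.

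Background subtraction turned Gbp10 and Gbp11 with anti-B7H3 (3.48 and 7.07), Gbp11 with the combination (6.74), and Gbp8 (6.58, called), Gbp3 (0.45), Gbp2b (0.89) and Gbp10 (1.54) with anti-PD1. Apart from that of Gbp3, these values rest on few or no reads left in isotype control and are no bounds. Subtraction also turned the interaction of Gbp10 (-1.19 ± 1.61, not called). That of Gbp11 (-0.33 ± 520) could not be estimated, since its reads were under the expected background in every isotype control and anti-PD1 library. Subtraction called 3 in place of 1 listed genes higher with anti-PD1, 5 in place of 3 negative in the interaction, and 3 in place of 1 or 0 others higher with anti-B7H3 and the combination. Scaling on genes well above background moved the median of all genes by -0.28 with anti-B7H3, -0.25 with anti-PD1 and -0.34 with the combination, and background subtraction by 0.31, 0.19 and 0.26. The share of calls that were higher with anti-B7H3 was 48.0%, 32.7% under that scaling and 60.1% after subtraction. With no filter on low counts, or without satellite-like genes, 3 listed genes were called higher with anti-PD1; with the effective-length offset 0 were, and 1 in place of 6 was lower against anti-B7H3 and 1 in place of 3 negative in the interaction. From the longest transcripts 3 in place of 6 listed genes were lower in the combination than in anti-B7H3.

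Outside the list, 0 in place of 2 were lower with anti-PD1 after subtraction, with no filter, with the groups compared alone, without satellite-like genes, with the offset and from longest transcripts, and 1 or 0 in place of 2 higher against anti-PD1 with the last 2. In the interaction 0 in place of 1 were negative with the offset, longest or complete transcripts, and scaling on genes well above background, which called 1 positive. For related lists, counts ran between 0 and 3 where the main count was 1 or 2. Calls higher with anti-PD1 were 7 in place of 15 with that scaling, the offset or longest transcripts, and lower 2, 2 and 3 in place of 5 after subtraction, with the offset and from longest transcripts. The offset left 14 of 30 lower against anti-B7H3, 24 of 38 higher against anti-PD1 and 13 of 20 negative in the interaction, and longest transcripts left 9, 20 and 9. DESeq2 and unrounded counts kept every listed count within 1.5 times. The causes were not tested.

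With each library left out in turn, listed genes called higher with anti-PD1 ran from 1 to 2, others lower from 0 to 2, others higher against anti-PD1 from 1 to 2, and others in the interaction from 0 to 1 in each direction. Related genes lower ran from 1 to 2 with anti-B7H3, 2 to 6 with anti-PD1, 1 to 2 with the combination and 0 to 2 against anti-PD1, and higher from 1 to 2 against anti-B7H3 and 0 to 3 in the interaction. Under the replicate block 7 listed genes were called higher and 1 lower with anti-B7H3, and 1 related gene in place of 2 was higher in the combination than in anti-B7H3. No other call of a listed gene changed under it. Of 1841 values of single genes under 28 alternatives, 1656 kept their call and moved less than the spread between replicates, and 20 turned. Isotype control libraries, with the fewest reads outside satellite-like genes, limit what can be said of Gbp4, Gbp6, Gbp8, Gbp2b, Gbp10 and Gbp11 there.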
